A study of Homo sapiens with 4 samples.

Results

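The MYC and MAX network was followed through 10 genes, taken by name from the deposited gene table: MYC, MYCN, MYCL, MAX, MXD1, MXI1, MNT, MLX, MLXIP and MGA. They are 10 of 34545 gene symbols in that table. Of the 10, 9 passed the filter on low counts and were tested together with 15302 genes in all, and MYCN did not. The rule takes genes by name, and the names were picked with earlier results of these data known. RNA was sequenced from cells labelled DLD-1, a line from a colorectal carcinoma, of wild-type genotype, either untreated (2 control libraries) or treated with creatine (2 creatine libraries). The study asked what creatine does to ferroptosis, an iron-dependent form of cell death. The labels give neither dose nor time, and do not say whether libraries of a group came from separate cultures, so that p-values measure a spread that may be technical.

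MYC proteins are basic helix-loop-helix leucine zipper transcription factors that bind DNA as pairs with MAX, mostly at the E-box CACGTG, and raise the transcription of genes for growth, ribosome production and metabolism. The MXD proteins and MNT compete for MAX and bring SIN3 and histone deacetylases to the same sites, so the balance of MYC to its antagonists is thought to set the output. MLX is the partner in a parallel arm with MondoA (encoded by MLXIP) and ChREBP (encoded by MLXIPL), which read out sugar phosphates, and MGA ties MAX to a polycomb complex that silences germline genes. In colorectal cancer MYC is a well-known target of Wnt signalling and beta-catenin.

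MYC was the most abundant of the 10 and was lower with creatine, MNT was lower as well, and MAX, their shared partner, differed by less than its error. MYC fell by 16.9% and MNT fell by 23.9%. The other 7 tested genes did not pass the test, with MXD1 and MGA on the higher side and MLX and MLXIP on the lower side. MAX, MXI1 and MYCL had log2 fold changes between -0.02 and 0.03. In counts, 2 of 9 tested genes were called lower and 0 higher, against a background of 10.5% called lower, 9.15% called higher and 19.6% called in either direction among all genes tested. The share called in either direction among the network genes was thus close to that background, with both calls on the lower side. After a correction for the GC content and length of genes, described below, 0 of the 9 passed.

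The library totals lay between 48249693 and 59860043 counts. Markers of the labelled cell type were looked up first. Each of the 9 colon epithelium markers was under 1 CPM (counts relative to the library total, on the usual CPM scale with TMM factors for library composition) in every library, among them EPCAM, CDX1, CDX2 and VIL1, and their summed level was between 1.07 and 1.95 CPM. Of 9 mesenchymal markers, 8 had a mean over 10 CPM, and the list summed to 6083 and 5975 CPM in the controls against 5460 and 5367 CPM with creatine. The list was split: 1 was called lower, MMP14 (log2 fold change -0.23), and 1 higher, ZEB1 (0.41), with a median of -0.11. Over all genes tested 10.5% were called lower and 9.15% higher. After the correction described below neither gene passed (-0.01 and 0.24). The immune list summed to 182 and 173 CPM in controls and 151 and 152 CPM with creatine, nearly all of it from CD68. None of the 5 fibroblast markers had a mean over 10 CPM, nor did any of the 4 endothelial markers in the table. VIM, a mesenchymal filament gene, was at 2328 to 2686 CPM. DLD-1 is described as epithelial, and these markers go against the label; the libraries are called by their labels only as names. Whether the marker sums play a part in the results below was not tested. In bulk RNA, fewer cells of a kind and less RNA per cell cannot be told apart.

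**Figure D1:**
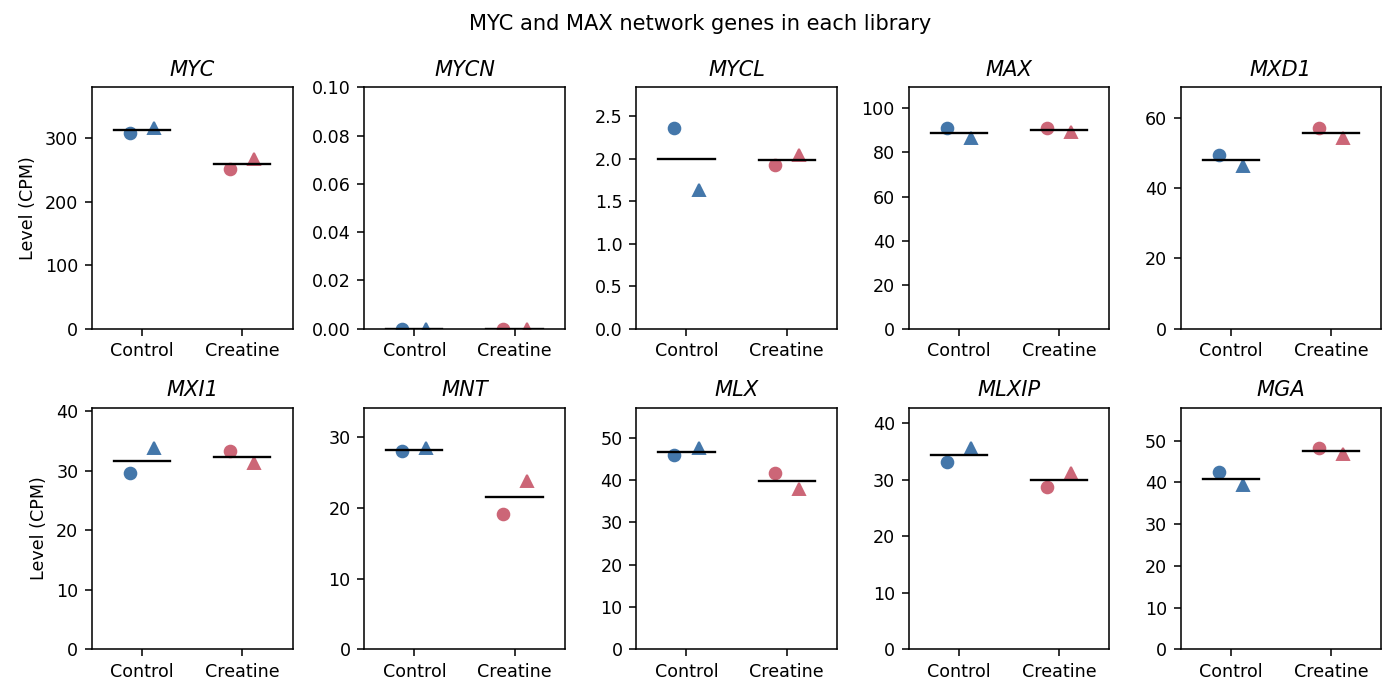
Level of each of the 10 genes in CPM (vertical axes, each starting at 0) in the 2 control (blue) and 2 creatine (red) libraries; circles are replicate 1, triangles replicate 2 and bars the group means. MYC lay at 307 and 316 CPM in controls and 251 and 267 CPM with creatine, while MYCN was at 0 in each library.

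The founding member, MYC (chromosome 8, 127735434 to 127741434 in GRCh38, plus strand), was read 18403 and 15536 times in the control libraries and 12905 and 12807 times with creatine. In scaled units it stood at 307 and 316 CPM in controls and at 251 and 267 CPM with creatine. Both creatine libraries lay below both controls, with a gap wider than the distance within either pair. Group means were 312 ± 6.65 and 259 ± 11.8 CPM (SD, n = 2 each). The log2 fold change was -0.27 (SE 0.07, 95% interval -0.40 to -0.13, adjusted p = 0.0063). Without creatine replicate 1 it was -0.22 and did not pass (adjusted p = 0.138). No other annotated gene overlaps MYC, in a search that left out small RNA classes and processed pseudogenes.

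MYCN (chromosome 2, 15940564 to 15947007), the neural relative of MYC, had 0 counts in all 4 libraries. At these totals a count of 0 allows a level of up to 0.0501 to 0.0622 CPM (3 counts), a limit that covers counting error only. MYCL (chromosome 1, 39895426 to 39902256), first found in lung cancer, was read 142 and 80 times in controls and 99 and 98 times with creatine. Its levels of 2.37 and 1.63 CPM in controls enclosed both creatine values, 1.92 and 2.05 CPM. The log2 fold change of -0.02 had an interval of -0.68 to 0.65 (adjusted p = 0.98), so changes of about that size in either direction were not detectable at this depth. Per length, MYC family transcript in these libraries was nearly all MYC.

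MAX (chromosome 14, 65006174 to 65102695), the partner that MYC, the MXD proteins, MNT and MGA need to bind DNA, stood at 91.3 and 86.4 CPM in controls and at 91.2 and 89.1 CPM with creatine. The creatine values fell inside the control range. Its log2 fold change was 0.02 (SE 0.07, 95% interval -0.13 to 0.18, adjusted p = 0.89), and it was -0.03 without control replicate 2. MAX shares part of its span with FNTB on the opposite strand, and since the strand setting of the counting is not given, some reads may belong to that gene.

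Among the genes for MAX-dependent repressors, MNT (chromosome 17, 2384060 to 2401118) fell while MXD1 and MXI1 did not pass. MNT, a broadly expressed antagonist of MYC, was at 28.1 and 28.5 CPM in controls and at 19.1 and 23.9 CPM with creatine. The controls were nearly equal, the creatine libraries lay below them and differed from each other. The log2 fold change was -0.40 (SE 0.12, 95% interval -0.63 to -0.16, adjusted p = 0.018). It depended on creatine replicate 1, without which it was -0.24 (adjusted p = 0.316), and it was -0.57 without creatine replicate 2 (adjusted p = 0.0034). An antisense transcript, AC006435.1, overlaps MNT.

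MXD1 (chromosome 2, 69897688 to 69942945), a repressor known for rising as cells leave the cycle and differentiate, was at 49.5 and 46.3 CPM in controls and at 57.2 and 54.3 CPM with creatine. Both creatine libraries were above both controls, by a log2 fold change of 0.22 (SE 0.09, 95% interval 0.04 to 0.40), which did not pass after adjustment over all genes (adjusted p = 0.078). SNRNP27, a splicing gene on the same strand, overlaps it and was itself higher (0.39, adjusted p = 0.011), and reads in the overlap cannot be told apart. MXI1 (chromosome 10, 110207605 to 110287365), a further MXD family repressor, was at 29.6 and 33.8 CPM in controls and at 33.3 and 31.3 CPM with creatine. Its groups overlapped, with a log2 fold change of 0.03 (95% interval -0.18 to 0.24, adjusted p = 0.89).

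The remaining MXD genes are not among the 10 and were listed beside them. MXD4 was at 33.6 and 33.2 CPM in controls and at 25.6 and 26.2 CPM with creatine, a log2 fold change of -0.37 (SE 0.10, adjusted p = 0.012). The pairs were tight and well apart, though the call was lost without creatine replicate 1 (adjusted p = 0.096). MXD3 had 231 and 251 counts in controls and 140 and 148 with creatine, or -0.62 (SE 0.24, adjusted p = 0.067), and it passed without control replicate 1 (adjusted p = 0.028). MXD3 overlaps RAB24 on its own strand and PRELID1 on the other. Differences between the antagonist genes were not tested, and after correction MNT, MXD4 and MXD1 did not pass.

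In the MLX arm both measured genes lay lower with creatine and neither passed. MLX (chromosome 17, 42567068 to 42573239), the common partner of MondoA and ChREBP, was at 45.9 and 47.5 CPM in controls and at 41.7 and 37.9 CPM with creatine. Its groups did not overlap (log2 fold change -0.23, SE 0.09, 95% interval -0.42 to -0.04, adjusted p = 0.081). PSMC3IP, on the opposite strand, overlaps it. MLXIP (chromosome 12, 122078722 to 122147347), which encodes the glucose sensor MondoA, was at 33.2 and 35.6 CPM in controls and at 28.7 and 31.1 CPM with creatine. Again both creatine libraries lay below both controls (log2 fold change -0.20, SE 0.10, 95% interval -0.41 to 0.00, adjusted p = 0.16). MLXIPL, for ChREBP, had 4 and 10 counts in controls and 4 and 0 with creatine, too few to test.

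MGA (chromosome 15, 41621224 to 41773081), a large protein that pairs with MAX and recruits polycomb proteins, was at 42.5 and 39.3 CPM in controls and at 48.2 and 46.8 CPM with creatine. Both creatine libraries were above both controls, by a log2 fold change of 0.22 (SE 0.09, 95% interval 0.03 to 0.40), and the gene did not pass (adjusted p = 0.095). For 6 of the 9 tested network genes, MYC, MXD1, MNT, MLX, MLXIP and MGA, the 2 groups did not overlap in CPM. The same held for 58.2% of all genes tested.

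**Figure D2:**
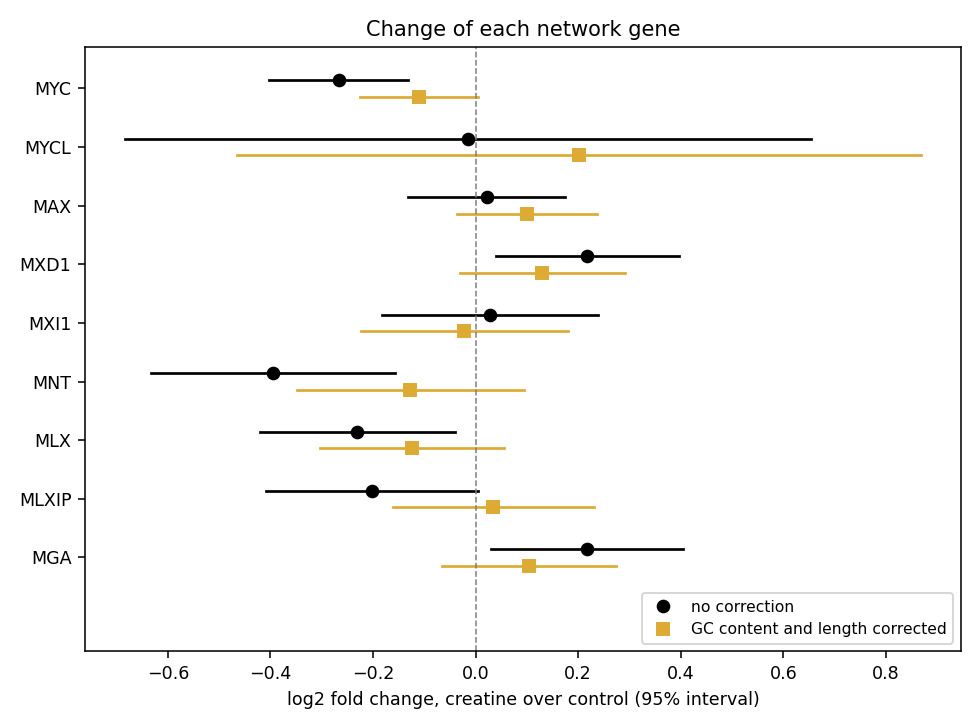
Log2 fold change of creatine over control for the 9 tested genes (points) with 95% intervals (lines), without correction (black circles) and with correction for GC content and gene length (yellow squares). The uncorrected intervals of MYC, MNT, MLX, MXD1 and MGA leave out 0, and the corrected interval of MYC runs from -0.23 to 0.00.

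Direction of change followed GC content over the whole table, and the network genes lay in part along that trend. Of 5200 genes with transcript GC under 45%, 1179 were higher and 12 lower with creatine, and of 4505 genes over 55%, 28 were higher and 1239 lower. MGA and MXD1, the highest of the 9 in log2 fold change, have the lowest GC of the 9, at 42.7% and 44.5%. MNT, the lowest of the 9, has the highest, at 60.6%, and MYC is at 57.0% and MLXIP at 57.2%. MAX, at 51.1%, and MXI1, at 46.3%, lie between. MYCL, at 58.0%, was near 0 (-0.02, with a wide interval). MLX, at 52.5%, was at -0.23, against a median of -0.025 for genes of 45% to 55%. Slopes on GC were taken for each library from the deviations of log2 CPM from a gene's mean over the 4 libraries. They were 0.08 and 0.13 log2 units per 10 points of GC in controls and -0.13 and -0.08 with creatine. GC and treatment thus separate the libraries in the same way. Being relative to that mean, the slopes restate the trend and do not show a trend in any library alone.

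**Figure D3:**
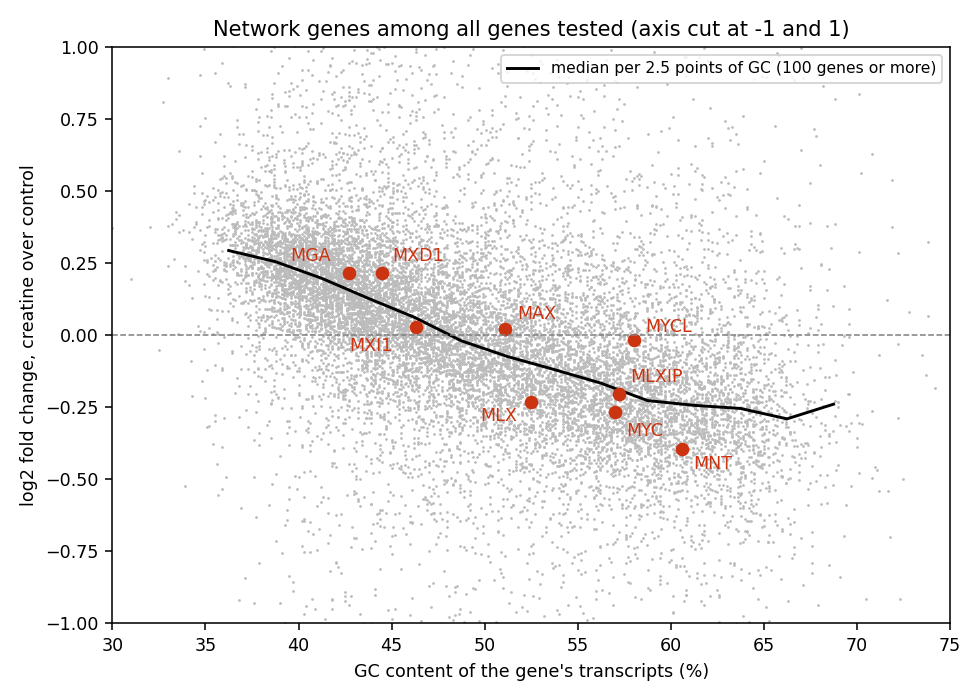
Log2 fold change of creatine over control (vertical axis) against the GC content of a gene's transcripts in percent (horizontal axis) for 15279 genes (grey), with the median per 2.5 points of GC in bins of 100 genes or more (black line) and the 9 network genes (red). The vertical axis stops at -1 and 1, which leaves out 553 genes; MGA and MXD1 lie at low GC above 0, and MYC, MLXIP and MNT at high GC below 0.

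When a smooth trend on GC content and gene length was taken out of each library, 2.35% of all genes were called, 1.27% higher and 1.07% lower, and 0 of the 9 network genes. MYC was then at -0.11 (95% interval -0.23 to 0.00, adjusted p = 0.35) and MNT at -0.13 (adjusted p = 0.64). MLX was at -0.12, MXD1 at 0.13, MGA at 0.10 and MAX at 0.10, with adjusted p from 0.46 to 0.61. MLXIP took the opposite sign (0.03), as did MXI1 (-0.02) and MYCL (0.20), and MXD4 was at -0.10 (adjusted p = 0.70). Taking out the trend also removes any change by creatine that follows GC content, and the design gives no way to tell them apart.

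Levels were next compared between genes after division by gene length, in TPM (counts divided by gene length and scaled to the same sum in each library). MYC stood at 435 and 435 TPM in controls and 348 and 365 TPM with creatine, above 97.5% of the genes tested. MAX followed with 80.5 to 87.8 TPM over the 4 libraries, then MLX with 36.4 to 46.1 TPM, MXD1 with 30.1 to 37.5 TPM and MXI1 with 27.3 to 30.3 TPM. MNT, MGA and MLXIP formed a lower tier between 8.59 and 13.7 TPM, and MYCL had 1.33 to 1.99 TPM. MYC, MAX, the trio of MLX, MXD1 and MXI1, the lower tier and MYCL did not overlap each other in range. Within each of the 2 middle tiers neighbours overlapped, MLX with MXD1, MXD1 with MXI1, MNT with MGA and MGA with MLXIP. The deposited gene length spans 17651 bases for MGA and 13905 for MLXIP, and any part of it that these cells leave out makes such a level too low.

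The balance of MYC to its antagonists was described from summed levels. The MYC family summed to 437 TPM in each control and to 350 and 367 TPM with creatine (means 437 ± 0.524 and 358 ± 12.2 TPM, SD, n = 2 each). Antagonists of the MXD family and MNT (MXD1, MXI1, MNT, MXD3 and MXD4) summed to 97.6 and 97.4 TPM in controls and to 94.0 and 91.8 TPM with creatine (means 97.5 ± 0.141 and 92.9 ± 1.59 TPM, SD, n = 2 each). Transcript of MYC thus exceeded that of its antagonists 4.46-fold and 4.47-fold in the controls, against 3.70-fold and 3.98-fold with creatine. The ratio of MYC to MAX was 4.96 and 5.41 for the untreated libraries, and 4.06 and 4.43 for the treated. In both ratios the creatine libraries lay below the controls. The sums and ratios, here and in the next paragraph, were not corrected for GC content. It is 57.0% for MYC and 51.1% for MAX. Among the antagonists it is 44.5% for MXD1, 46.3% for MXI1, 60.6% for MNT, 61.0% for MXD4 and 62.8% for MXD3. Whether the ratios differ beyond the GC trend was not tested. With 2 libraries against 2, a two-sided exact permutation test cannot go below p = 0.333, the value it gave for both ratios, for the MYC family and for the antagonists.

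The MLX arm (MLX, MLXIP and MLXIPL) summed to 56.1 and 56.8 TPM in controls and to 49.5 and 45.6 TPM with creatine. MGA was at 10.2 and 9.19 TPM in controls and at 11.4 and 10.9 TPM with creatine. The creatine libraries lay below the controls in the first sum and above them for MGA (exact permutation p = 0.333 for each, the smallest possible), and none of the tested genes in either passed on its own. Groups without overlap were found for 58.2% of all genes tested. MAX was at 84.1 TPM in the mean of controls and at 84.2 TPM with creatine.

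**Figure D4:**
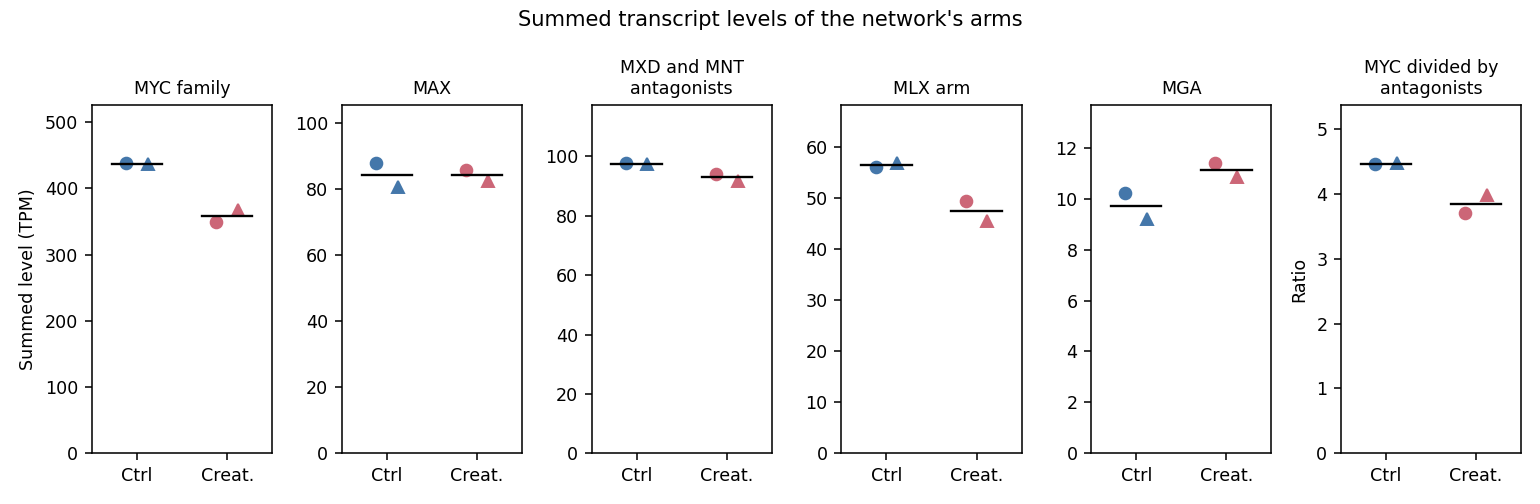
Summed levels in TPM (first 5 panels) of the MYC family, MAX, the MXD and MNT antagonists, the MLX arm and MGA, and the ratio of MYC to its antagonists (last panel), in the 2 control (blue) and 2 creatine (red) libraries; circles are replicate 1, triangles replicate 2, bars the group means, and axes start at 0. Without correction for GC content, the ratio was 4.46 and 4.47 in controls and 3.70 and 3.98 with creatine.

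Genes most like MYC in pattern were sought among 1266 genes of similar abundance (within 1 log2 unit of its mean CPM), by the root mean square difference of log2 CPM deviations over the 4 libraries. Among the nearest were HGS (0.0027), which sorts receptors in endosomes, the ephrin receptor gene EPHB2 (0.0086), the COP9 signalosome gene GPS1 (0.012) and the phosphofructokinase gene PFKP (0.013). Their GC content lay between 57.4% and 63.0%. Their log2 fold changes lay between -0.28 and -0.26, near that of MYC because the genes were picked by this pattern. With correction for GC and length they were between -0.06 and 0.02, against -0.11 for MYC. The likeness rests on 4 libraries.

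Promoter windows from RefSeq (GRCh38.p14), 250 bases before to 50 after a transcription start, were searched for the E-box CACGTG, which reads the same on both strands. The motif was in 7.26% of 35116 windows, and 12.2% of the tested genes with a window held it in at least 1. Of the network genes 9 had a window in the table (14 windows in all), MYC not among them, and 2 of the 9 held the motif, MNT and MLX. Both lay on the lower side with creatine, MNT with and MLX without passing the test. After correction for GC and length neither passed (-0.13 and -0.12). Median transcript GC was 56.6% for these 2 and 48.7% for the tested members without the motif. Whether the motif goes with the direction was not tested. The 2 windows are shown 5′ to 3′ with the E-box in capitals, since they are the places in this set of genes where MYC or MNT with MAX, or MLX with its partners, could find their preferred letters. In MNT (chr17:2401011-2401310, minus strand) the motif begins 193 bases before the start, and in MLX (chr17:42566850-42567149, plus strand) 50 bases before it.
MNT: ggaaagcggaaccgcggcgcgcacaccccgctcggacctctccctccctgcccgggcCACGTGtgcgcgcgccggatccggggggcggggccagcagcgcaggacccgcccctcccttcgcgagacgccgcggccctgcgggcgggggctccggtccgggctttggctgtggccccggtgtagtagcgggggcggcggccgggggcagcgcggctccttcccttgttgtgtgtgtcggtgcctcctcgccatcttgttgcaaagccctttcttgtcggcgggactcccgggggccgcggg
MLX: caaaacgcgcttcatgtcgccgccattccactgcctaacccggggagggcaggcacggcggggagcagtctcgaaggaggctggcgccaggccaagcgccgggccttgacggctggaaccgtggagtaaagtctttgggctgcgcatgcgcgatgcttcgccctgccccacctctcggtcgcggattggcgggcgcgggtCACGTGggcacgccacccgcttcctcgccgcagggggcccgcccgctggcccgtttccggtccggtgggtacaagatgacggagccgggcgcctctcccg

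A match in such a window is a description of letters and not a bound site. The windows of MXD1, MXI1, MLXIP, MAX, MGA, MYCL and MYCN held no such run, which says nothing of binding elsewhere.

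Targets of MYC were called in both directions. Among 60 genes commonly described as activated by MYC, 10 rose, 16 fell and 34 missed the threshold, with a median log2 fold change of -0.02, against 0.01 over all genes tested, of which 9.15% were higher and 10.5% lower. The smallest adjusted p were those of MCM5 (-0.41), a subunit of the replicative helicase, CAD (-0.37), which starts pyrimidine synthesis, TCOF1 (-0.33), of ribosomal DNA transcription, and E2F1 (-0.48), a cell cycle transcription factor. CAD went from 125 and 120 CPM in controls to 94.0 and 96.0 CPM with creatine (adjusted p = 0.0013). E2F1 went from 38.5 and 42.5 to 27.4 and 30.6 CPM (adjusted p = 0.0023). Nucleolar genes of the same list were called in both directions. NPM1 (0.27, adjusted p = 0.0037), DDX18 (0.29, adjusted p = 0.0036) and NCL (0.18, adjusted p = 0.029) were higher, and UBTF (-0.28, adjusted p = 0.0090) and GRWD1 (-0.29, adjusted p = 0.0066) lower, all 5 named after their values were seen. NPM1, DDX18, UBTF and GRWD1 did not pass after correction (0.07, 0.08, -0.08 and -0.04).

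With correction for GC and length 2 of the 60 targets were higher and 2 lower. The corrected shares over all genes tested were 1.27% higher and 1.07% lower. MCM5, CAD, TCOF1 and E2F1 did not pass (-0.19, -0.14, -0.07 and -0.28). Those that passed were NOP16 (0.34) and NCL (0.19), both nucleolar, and UNG (-0.38), the uracil glycosylase of base repair, and CTPS1 (-0.26), which makes CTP. These too were named after their values were seen. Without creatine replicate 1 the counts of the uncorrected test were 4 higher and 5 lower, and without creatine replicate 2 they were 1 and 12.

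Of the MYC-activated targets 49 had a promoter window, and 27 of these, or 55.1%, held CACGTG, in a list built around MYC binding, against 12.2% of the genes tested that have a window. The 27 had 5 members higher and 5 lower with a median of 0.04, and the other 22 had 4 higher and 7 lower with a median of -0.02. Over all genes tested 9.15% were higher and 10.5% lower. Median transcript GC was 52.4% with the motif and 49.6% without, and after correction for GC and length the medians were 0.03 and -0.01. Whether the 2 parts differ was not tested. CDK4, the G1 cyclin-dependent kinase, had 3 E-boxes in its window (chr12:57752261-57752560, minus strand), and ODC1, the polyamine enzyme that is a classic MYC target, had 2 (chr2:10447963-10448262, minus strand). Neither passed the test, with CDK4 at 0.04 (adjusted p = 0.72) and ODC1 at 0.14 (adjusted p = 0.12). They are shown in the same way as the targets with the most motifs and the best-known one.
CDK4: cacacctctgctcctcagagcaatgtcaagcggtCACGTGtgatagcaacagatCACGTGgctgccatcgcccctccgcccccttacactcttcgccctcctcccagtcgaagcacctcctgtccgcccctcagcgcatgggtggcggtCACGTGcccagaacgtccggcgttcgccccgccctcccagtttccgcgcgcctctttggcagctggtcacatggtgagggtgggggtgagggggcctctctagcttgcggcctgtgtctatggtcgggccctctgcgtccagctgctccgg
ODC1: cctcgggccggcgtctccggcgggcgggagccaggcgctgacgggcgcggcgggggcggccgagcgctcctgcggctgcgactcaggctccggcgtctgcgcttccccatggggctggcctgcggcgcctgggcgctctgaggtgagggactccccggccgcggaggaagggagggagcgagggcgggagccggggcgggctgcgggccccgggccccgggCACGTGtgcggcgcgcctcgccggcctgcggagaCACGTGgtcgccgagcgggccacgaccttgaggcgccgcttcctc

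Genes described as repressed by MYC gave 1 higher and 1 lower of 12 tested (median -0.06). The shares over all genes tested were 9.15% higher and 10.5% lower. GADD45A, a stress gene, rose from 504 and 563 to 621 and 639 CPM (0.24, adjusted p = 0.013) and passed after correction (0.35, adjusted p = 0.0018). NDRG1, a differentiation gene, fell from 1003 and 993 to 797 and 816 CPM (-0.31, adjusted p = 0.0013) and did not pass after correction (-0.11). The GADD45A call was lost when creatine replicate 1 (adjusted p = 0.062) or 2 (0.13) was left out, and 4 of the list were lower without control replicate 2 and 2 without creatine replicate 2. For MondoA and MLX, 5 targets were tested, to be read against the same shares over all genes. Of these 1, the glycolytic regulator PFKFB3, was lower (-0.28, adjusted p = 0.015) and 0 were higher. It missed the threshold after correction (-0.05) and with creatine replicate 1 left out (adjusted p = 0.22). TXNIP, the best-known MondoA target, named after its value was seen, was at 0.09 (adjusted p = 0.54).

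Of 17 cofactors of MYC tested, 8 were lower and 1 higher (median -0.16), against 10.5% lower and 9.15% higher over all genes tested. After correction 1 was lower and 0 higher, and whether the list differs from other genes was not tested. The list's median GC was 57.2% against 48.9% over all genes tested. HCFC1, a host cell factor that joins chromatin enzymes to MYC, fell from 169 and 152 to 105 and 112 CPM (-0.57, SE 0.07, adjusted p = 7.6e-05). TRRAP (-0.32) and EP400 (-0.33), of histone acetylase complexes, and PAF1 (-0.29), of elongation, fell as well. The 1 on the higher side, MYCBP2 (0.21, adjusted p = 0.049), was named after its value was seen and did not pass with RLE scaling or with no filter on low counts. After correction HCFC1 passed (-0.29, adjusted p = 0.023), the other 3 did not (-0.17, -0.13 and -0.15), and the list's median was -0.01. With creatine replicate 1 left out the list had 2 lower, and TRRAP (adjusted p = 0.084) and PAF1 (0.066) missed the threshold. With creatine replicate 2 left out it had 4 lower, and PAF1 was again above it (0.086).

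**Figure D5:**
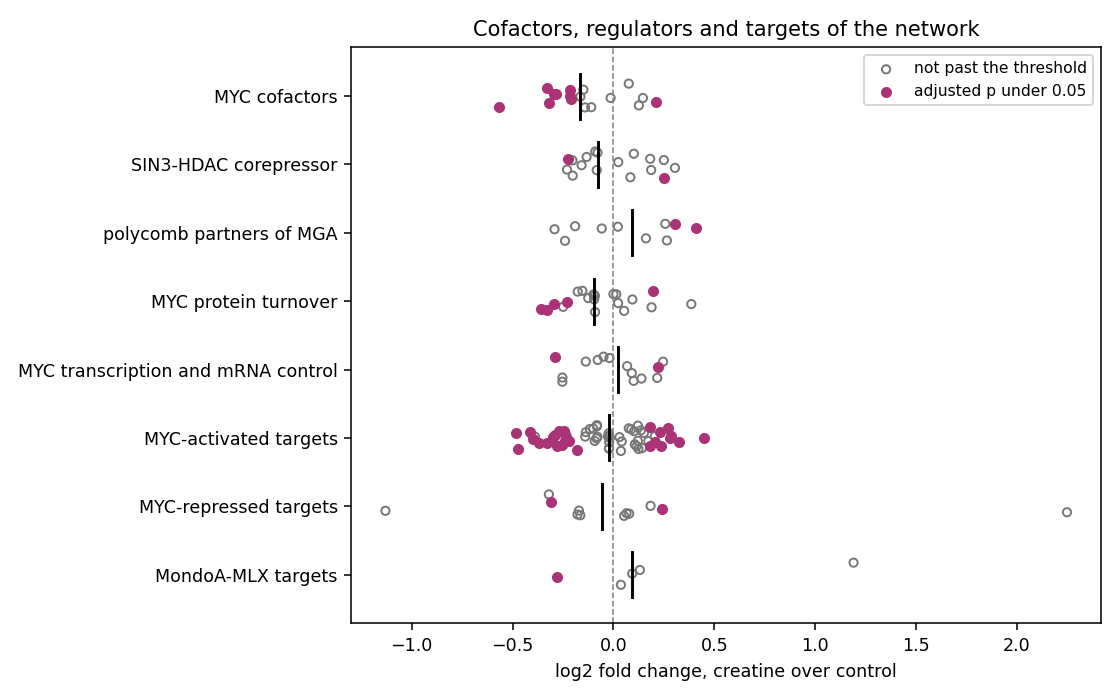
Log2 fold change of creatine over control for each tested gene (circles) of 8 lists around the network, with filled circles for adjusted p under 0.05 and a black bar at each list's median. The median of the MYC cofactors lies at -0.16, and MYC-activated targets lie on both sides of 0.

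On the repressor side, the SIN3 and HDAC list had 1 higher and 1 lower of 17 tested (median -0.08). Over all genes tested 9.15% were higher and 10.5% lower. HDAC2 was higher (0.25, adjusted p = 0.013) and SIN3B, a scaffold that MXD proteins bind, lower (-0.23, adjusted p = 0.047). After correction both were near 0 (0.06 and 0.03) and SIN3B had the opposite sign. HDAC2 did not pass without control replicate 1 or either creatine library (adjusted p = 0.074, 0.055 and 0.12), and SIN3B did not pass with DESeq2 (adjusted p = 0.051), with upper quartile scaling (0.064), without control replicate 2 (0.055) or without creatine replicate 1 (0.47). The polycomb partners of MGA had 2 higher and 0 lower of 10 tested (median 0.09), against the same 9.15% and 10.5%. They were CBX3 (0.30, adjusted p = 0.0038), a chromatin reader, and YAF2 (0.41, adjusted p = 0.024), which was lost without control replicate 2 (adjusted p = 0.18) or creatine replicate 1 (0.24). With 1 library left out the list had 1 to 3 higher and 1 to 2 lower. After correction neither passed (0.08 and 0.22), and RING1, a polycomb ubiquitin ligase named after its value was seen, was at 0.42 (adjusted p = 0.015).

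Of 14 germline genes that this complex is known to silence, mainly from work in mouse, 11 were under 1 CPM in every library. Low counts were as common in the whole table: 6 of the 14 passed the filter on low counts, and 15302 of 34545 symbols did. The low level is thus not particular to this list. Of the 6 that could be tested 0 passed in either direction, with SYCE1, of the synaptonemal complex, at 0.20 (adjusted p = 0.18) and STK31 at -0.49 (adjusted p = 0.65). SYCE1 passed after correction (0.36, adjusted p = 0.044). It was the 1 gene of the list with a mean over 10 CPM. Its levels were 27.8 and 27.9 CPM in controls and 32.65 and 31.17 CPM with creatine.

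Of 20 tested genes that govern the stability of MYC protein, 4 were lower and 1 higher (median -0.09), against 10.5% and 9.15% of all genes tested. AURKA, the mitotic kinase that also protects MYC family proteins from degradation, fell from 101 and 98.8 to 77.2 and 78.8 CPM (-0.36, SE 0.07, adjusted p = 0.0020) and passed after correction (-0.45, adjusted p = 0.0011). PLK1 (-0.33), a mitotic kinase, STUB1 (-0.29), a ubiquitin ligase, and USP22 (-0.23), a deubiquitinase, were lower and did not pass after correction (-0.13, -0.08 and -0.07). The 1 higher gene, SET (0.20, adjusted p = 0.028), a phosphatase inhibitor, was named after its value was seen. With creatine replicate 1 left out 1 of the list was lower, and PLK1, STUB1 and USP22 missed the threshold (adjusted p = 0.053, 0.12 and 0.16), as USP22 did with creatine replicate 2 left out (0.072). With either control left out the list had 6 lower.

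Of 14 tested genes that act on MYC transcription or on its mRNA, 1 was higher and 1 lower. Among all genes tested 9.15% were higher and 10.5% lower. The higher gene was CNBP (0.22, adjusted p = 0.013), which binds a promoter element of MYC. The lower was PUF60 (-0.29, adjusted p = 0.0044), a repressor of the far upstream element. Neither passed after correction (0.07 and -0.02) or without creatine replicate 1 (adjusted p = 0.056 and 0.11), and CNBP did not without creatine replicate 2 (0.19). The list had 3 lower without control replicate 2 and 2 lower without creatine replicate 2. PVT1, the noncoding neighbour of MYC on the same chromosome, lay on the other side from MYC. It was at 31.7 and 35.2 CPM in controls and at 38.9 and 38.9 CPM with creatine, with no overlap (0.22, SE 0.10, 95% interval 0.02 to 0.42, adjusted p = 0.12). After correction it was at 0.31 (adjusted p = 0.086), and the difference between MYC and PVT1 was not tested.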

How the data were processed

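Per the submitters' processing notes, FastQC 0.11.9, HISAT2 2.2.1, featureCounts and DESeq2 were used by the authors with GRCh38. Their annotation, strand setting and treatment of multiply matching reads are not given in the labels. The deposited values are raw read counts for each gene symbol, beside a gene length in bases. Here genes kept by filterByExpr were tested with edgeR 4.0.16 (R 4.3.3) on the counts, with TMM scaling, a quasi-likelihood fit across all genes on the group alone and Benjamini-Hochberg adjustment (threshold 0.05). Libraries of a group differed by more than sampling noise (chi-square per degree of freedom 16.0 and 8.87). Overlaps, coordinates and GC content (all transcripts of a gene, weighted by length) came from GENCODE on GRCh38, which matched 34408 symbols. The correction entered a smooth trend of log2 CPM on GC and log2 length (mgcv 1.9.3) as an offset. Further settings, 16 in number, included DESeq2 1.42.0 and limma 3.58.1 (voom). The fit was tested on simulated data. The 10 genes and the lists were chosen with earlier results of these data known. Genes named from a list are up to 4 that passed with the smallest adjusted p, or the 2 smallest where none passed. CIP2A, CCAT1 and PECAM1 are not analysed here. Of the genes most like MYC in pattern, 1 is not reported here.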

Additional observations from a re-analysis of the deposited data

How the results depend on the processing

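Counts of called genes, 3001 in all, were 314 with correction for GC content, 359 with GC content and length, and 682 with a replicate block added to the latter, and with 1 library left out they ran from 1162 to 3116. The count of network genes lower, 2, was 0 under each of these 3 corrections and ran from 0 to 2 with 1 library left out. A replicate block alone gave 1 network gene higher (MXD1, adjusted p = 0.0498) and 3 lower, with MLX added (adjusted p = 0.048). The labels do not say that a number pairs libraries, and the differences between replicates 1 and 2 correlated at -0.02 across genes. Signs changed for some genes that never passed: MYCL was at 0.002 with upper quartile scaling, 0.007 with the block, 0.17 with GC, 0.20 with GC and length, 0.22 with block and correction, and -0.27 to 0.28 with 1 library left out. MAX ran from -0.032 to 0.062 and MXI1 from -0.067 to 0.11 with 1 library left out. MXI1 was at -0.051, -0.022 and -0.019 under the 3 corrections, and MLXIP at 0.034 with GC and length and 0.034 with the block added. The cause was not tested. With other scalings, filters and tools (DESeq2, limma-voom, robust edgeR), MYC and MNT passed. Upper quartile scaling moved the median of all genes to 0.03. With it 1571 genes were higher and 1419 lower, against 1400 and 1601. Without creatine replicate 2, 739 were higher and 1210 lower.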

Other observations

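Other factors of the helix-loop-helix class that bind E-boxes or related sites were read beside the network. Of 14 tested, 4 were lower and 1 was higher with creatine, against 10.5% lower and 9.15% higher over all genes tested, and the median log2 fold change was -0.15. The sterol regulators SREBF1 and SREBF2 fell from 76.4 and 85.3 to 58.2 and 63.4 CPM (-0.41, adjusted p = 0.0018) and from 412 and 392 to 321 and 330 CPM (-0.30, adjusted p = 0.0025). USF2, a ubiquitous E-box factor, was lower by -0.35 (adjusted p = 0.0068), a call lost without creatine replicate 1 (adjusted p = 0.19), and HIF1A, the oxygen-regulated factor, was higher, from 600 and 582 to 716 and 726 CPM (0.29, adjusted p = 0.0026). The fourth gene on the lower side was TFAP4 (-0.44, adjusted p = 0.023), named after its value was seen. SREBF1, SREBF2 and USF2 have GC contents of 63.5%, 57.1% and 61.4%, HIF1A of 38.9%, and after correction 0 of the 14 passed.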
